A study of Mus musculus with 11 samples.

Results

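The genes described here are 32 genes of cholesterol synthesis and sterol control, out of 36528 gene IDs in the deposited tables. They were chosen by name for their place in the pathway, with earlier results of these data known. The set holds 18 enzymes of synthesis from acetyl-CoA to cholesterol, 5 genes of the SREBP control system, 4 genes of sterol uptake and transport, and 5 genes of efflux, storage and LXR signalling. All 32 were found in the tables by their Entrez IDs, and all 32 passed the filter on low counts.

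RNA was sequenced from 11 libraries of mouse liver cancer cell lines, grouped by the mutant protein of the tumours they came from. The coactivators YAP, from Yap1, and TAZ, from Wwtr1, are restrained by Hippo pathway kinases through phosphorylated serines, which the mutants replace with alanine. The groups were TAZ-S89A with 5 libraries, YAP-5SA with 3, and YAP-S127A with 3. TAZ-S89A and YAP-S127A are changed at the single serine in their names, and YAP-5SA, which the sample labels write as YAP-S5A, at further serines as well. Every group carries an activated mutant, and no group without one was analysed here. The labels name neither a promoter, a mouse strain nor the age of the animals, and whether libraries of a group came from different tumours, lines or dishes is not stated. All p-values below thus reflect the scatter among these libraries alone, possibly technical. Effects of mutant and of cell line cannot be told apart.

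Cells make cholesterol through the mevalonate pathway, which builds squalene from acetyl-CoA, and through a chain of enzymes in the endoplasmic reticulum that closes the rings, trims methyl groups and moves double bonds. SREBP2 (gene Srebf2) switches these enzymes on: its escort SCAP carries it to the Golgi for cleavage when membrane sterol is low, and INSIG proteins hold the complex back when sterol is high. LXR receptors, which oxysterols activate, work in the opposite direction and raise the exporters ABCA1 and ABCG1 and the ubiquitin ligase IDOL (gene Mylip), which degrades lipoprotein receptors. The liver is a main site of this synthesis.

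Total counts per library ran from 20071144 to 49159713, and the 2 lowest totals were TAZ-S89A replicates 4 and 5. Of 10 hepatocyte markers, 3 had enough counts to be tested (Alb, Hnf4a and Ass1), and all 3 were lower in TAZ-S89A than in YAP-S127A and than in YAP-5SA. Alb (albumin) reached at most 1.31 CPM (counts scaled to the library total) in any library, and Pck1 had no count. Hnf4a, a hepatocyte transcription factor, averaged 0.677 ± 0.0853 CPM in TAZ-S89A, 7.16 ± 0.481 CPM in YAP-5SA and 8.26 ± 0.874 CPM in YAP-S127A (SD), and Ass1, a urea cycle enzyme, 0.545 ± 0.258, 20.9 ± 8.42 and 5.84 ± 1.27 CPM. The 10 markers summed to 1.18 to 1.77 CPM in TAZ-S89A, 23.1 to 37.4 CPM in YAP-5SA and 13.98 to 16.8 CPM in YAP-S127A. Biliary markers (6 genes) summed to 1703 to 3613, 2694 to 4253 and 447.8 to 574.6 CPM in the same groups, and fibroblast and stellate markers (8 genes) to 3626 to 4748, 4525 to 4839 and 9063 to 9622 CPM. Macrophage and leukocyte markers (6 genes) summed to 7.81 to 9.13, 34.3 to 40.6 and 13.2 to 14.1 CPM, and endothelial markers (5 genes) to at most 2.497 CPM in any library. Single markers behind these sums went both ways. Of 5 tested biliary markers, 1 was higher and 2 lower in TAZ-S89A than in YAP-S127A. Against YAP-5SA, 2 were higher and 2 lower. Of 8 fibroblast and stellate markers, none was higher and 7 were lower than in YAP-S127A. Against YAP-5SA, 4 of these 8 were higher and 3 lower. The marker sums move with the groups that are compared, and the part of the markers in the results was not tested. In a bulk sample, fewer cells of a type and less RNA per cell cannot be told apart. As a check of the labels, Yap1 averaged 66.5 ± 13.7 CPM in TAZ-S89A, 171 ± 8.44 CPM in YAP-5SA and 197 ± 11.8 CPM in YAP-S127A (mean ± SD), and Wwtr1 82.3 ± 13.3, 141 ± 10.9 and 66.4 ± 1.54 CPM. Wwtr1 was not highest in the TAZ-S89A libraries, and counts per gene cannot separate the mutant transcript from the cell's own.

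TAZ-S89A libraries had higher levels of most synthesis enzymes than either YAP group, together with lower levels of the exporters Abca1 and Abcg1. Against YAP-S127A, 12 of the 18 enzymes were higher in TAZ-S89A and none was lower at an adjusted p under 0.05 (edgeR quasi-likelihood test, Benjamini-Hochberg over 18224 genes). Against YAP-5SA, 11 enzymes were higher in TAZ-S89A and 2 (Fdft1 and Ebp) were lower, of which none stayed called in the fits without YAP-5SA replicate 2, TAZ-S89A replicate 1 or TAZ-S89A replicate 5. The median log2 fold change of the enzymes was 0.69 in TAZ-S89A over YAP-S127A and 0.94 over YAP-5SA, whereas all tested genes had medians of -0.034 and -0.035. Of the 5 efflux, storage and LXR genes, none was higher, with 2 lower against YAP-S127A and 4 lower against YAP-5SA.

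The groups differed widely in general, and the counts of members have to be read against that. Of all tested genes, 57.6% were called in TAZ-S89A over YAP-S127A, with 27.0% higher and 30.6% lower. In TAZ-S89A over YAP-5SA, 57.9% were called, with 26.9% higher and 31.0% lower. Among all 32 members, 16 were higher and 4 lower in TAZ-S89A than in YAP-S127A, and 15 were higher and 8 lower than in YAP-5SA. The 20 members called in the first comparison are a share near that of all genes, and the 23 called in the second a somewhat larger one. The enzymes had mostly higher calls, where all genes had slightly more lower ones. The libraries of TAZ-S89A and YAP-S127A did not overlap for 22 members, beside 57.8% of all tested genes, and those of TAZ-S89A and YAP-5SA for 19 members, beside 52.0%. These comparisons share the TAZ-S89A libraries and so are not independent of each other.

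Between the YAP groups the called enzymes went both ways, and 6 of all 18 had a positive log2 fold change. In YAP-5SA over YAP-S127A, 4 enzymes were higher, 3 were lower and 11 were not called, and their median log2 fold change was -0.21, with 0.0086 for all tested genes. The number of lower enzymes was 5 with the trend by gene length removed from each library, and 7 without TAZ-S89A replicate 3 and YAP-5SA replicate 2, each with the largest excess of short over long genes in its group. Of the other members, 6 were higher and 3 lower. In all, 16 members were called, a share near the 55.2% of all tested genes (28.2% higher and 27.0% lower), and the libraries did not overlap for 21 members, beside 69.6%. The plot of fold changes shows the 3 comparisons by role. When a log2 difference of 1 or more in either direction was required as well, 8 members were called in TAZ-S89A over YAP-S127A, 14 in TAZ-S89A over YAP-5SA and 5 in YAP-5SA over YAP-S127A, beside 32.2%, 33.8% and 34.4% of all tested genes.

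**Figure D1:**
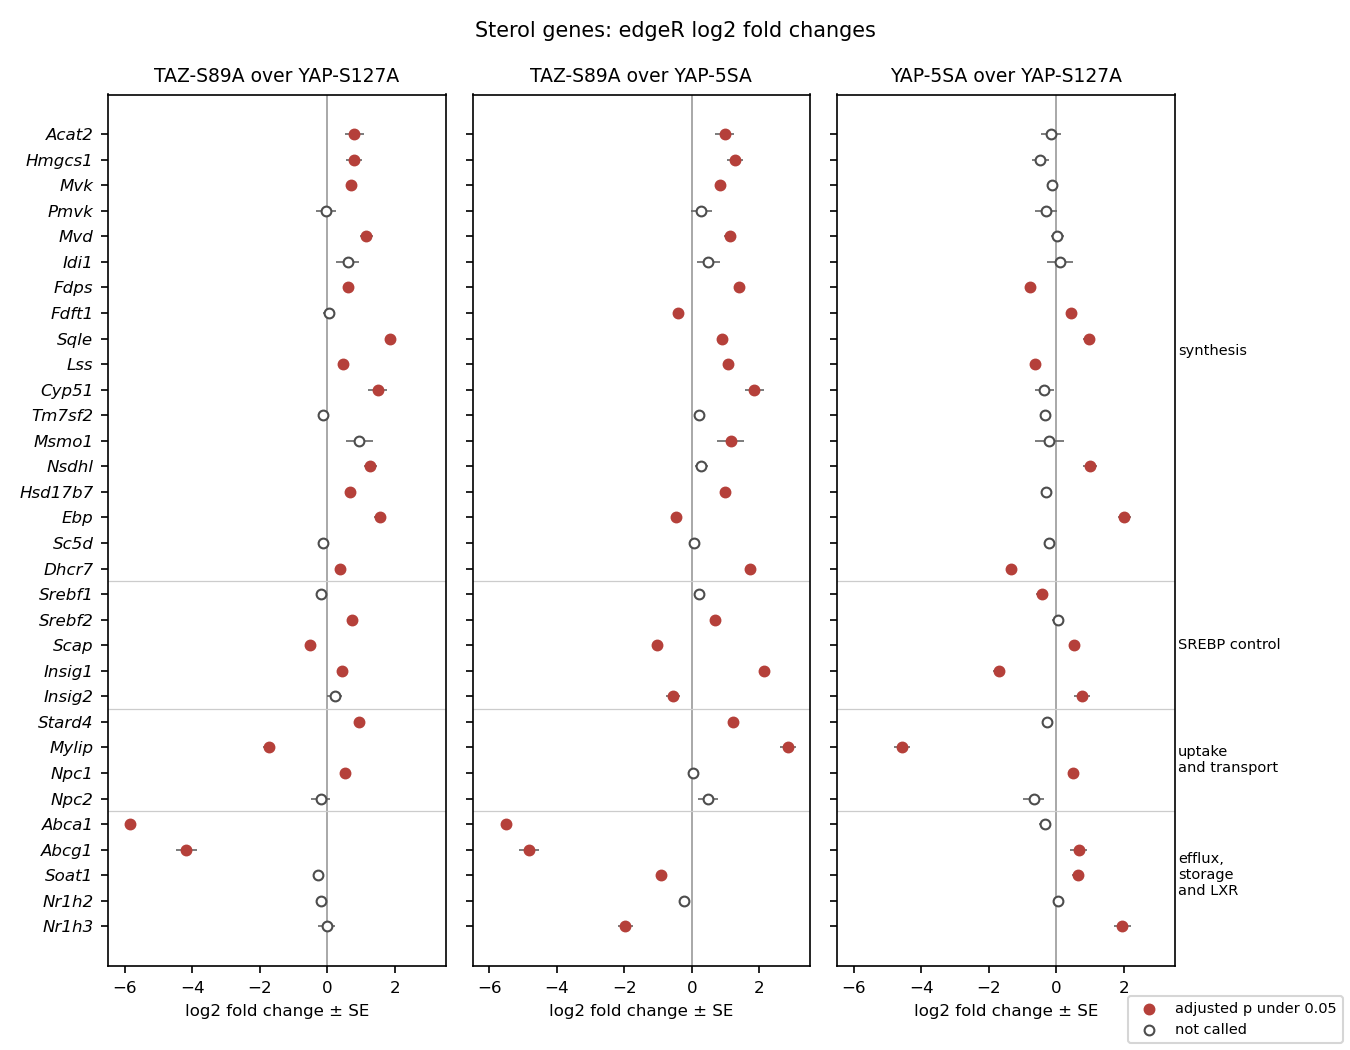
Log2 fold change (x axis, point ± SE from the edgeR fit) of the 32 genes (y axis, ordered by role) in TAZ-S89A over YAP-S127A, TAZ-S89A over YAP-5SA and YAP-5SA over YAP-S127A; filled points have an adjusted p under 0.05. Most enzymes lie right of 0 in the first and second panels and on both sides in the last one, and Abca1 and Abcg1 lie at -4.18 or below in both TAZ-S89A panels.

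Promoter sequences are shown for 4 members on which the results turn, 2 enzymes (Hmgcs1 and Cyp51), Insig1 and the exporter Abca1, since SREBP or LXR are known to control these genes through their promoters. Each runs 5′ to 3′ on the gene's strand over the 250 bases before the start site (157 for Abca1, where a longer gene model covers the rest), from RefSeq on GRCm38.p6. Hmgcs1 lies on the plus strand of chromosome 13 (chr13:119690101-119690350), Cyp51 on the minus strand of chromosome 5 (chr5:4104698-4104947), Insig1 on the plus strand of chromosome 5 (chr5:28071162-28071411) and Abca1 on the minus strand of chromosome 4 (chr4:53159989-53160145). Capitals mark matches, on either strand, to TCACNCCAC (a core of sterol regulatory elements), CCAAT (bound by NF-Y), GGGCGG (bound by SP1) and CACGTG (an E box).
Hmgcs1: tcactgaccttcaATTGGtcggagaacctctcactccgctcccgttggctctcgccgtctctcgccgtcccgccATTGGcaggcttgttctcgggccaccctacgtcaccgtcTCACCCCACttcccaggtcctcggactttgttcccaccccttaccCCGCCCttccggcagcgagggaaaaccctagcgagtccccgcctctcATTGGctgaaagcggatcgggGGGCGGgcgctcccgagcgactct
Cyp51: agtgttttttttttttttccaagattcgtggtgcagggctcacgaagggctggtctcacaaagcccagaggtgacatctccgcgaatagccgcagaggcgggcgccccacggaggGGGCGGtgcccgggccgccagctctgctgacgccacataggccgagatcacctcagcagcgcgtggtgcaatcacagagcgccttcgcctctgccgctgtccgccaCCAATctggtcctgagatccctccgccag
Insig1: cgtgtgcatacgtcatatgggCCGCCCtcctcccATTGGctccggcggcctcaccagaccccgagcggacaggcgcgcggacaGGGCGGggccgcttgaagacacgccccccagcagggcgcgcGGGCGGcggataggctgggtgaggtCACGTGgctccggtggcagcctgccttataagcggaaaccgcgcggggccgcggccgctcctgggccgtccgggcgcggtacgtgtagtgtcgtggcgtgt
Abca1: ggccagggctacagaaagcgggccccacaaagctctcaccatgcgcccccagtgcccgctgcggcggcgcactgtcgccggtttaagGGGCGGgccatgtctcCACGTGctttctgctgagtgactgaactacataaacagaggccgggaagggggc

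Over windows of 250 bases before to 50 after the start site, 26 of the 32 members had an entry. The sterol regulatory core was matched in 1 of these 26 genes, Hmgcs1, at -137 from the start site, and in 1.44% of all genes with a window. CCAAT was matched in 21 of the 26 members, and in 14 of the 15 enzymes with an entry, beside 41.1% of all genes. GGGCGG was matched in 23 of the 26 members and 14 of the 15 enzymes, beside 38.2% of all genes. The E box was matched in 6 of the 26 members, beside 8.09% of all genes. These shares are over 27025 genes with a window, more than the 18224 tested, whereas all members were tested. The background thus holds genes unlike the members, and a gene counts when any of its windows matches. Of the 4 windows shown, Hmgcs1 and Insig1 hold several matches each, Cyp51 holds a CCAAT and a GGGCGG, and Abca1 holds no CCAAT. A match is only these letters in this window, and no match says nothing about the factor.

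Of the 7 enzymes up to farnesyl diphosphate, 5 were higher in TAZ-S89A than in YAP-S127A and 5 were higher than in YAP-5SA. Hmgcs1, the cytosolic HMG-CoA synthase, had 112, 102, 193, 95.8 and 93.02 CPM in the TAZ-S89A libraries, 43.01, 60.6 and 45.1 CPM in the YAP-5SA libraries and 64.7, 66.3 and 76.8 CPM in the YAP-S127A libraries. Every TAZ-S89A library was above every YAP library, and TAZ-S89A replicate 3 stood far above the other TAZ-S89A libraries. The log2 fold change of Hmgcs1 was 0.78 ± 0.23 (SE) over YAP-S127A (adjusted p = 0.0105) and 1.27 ± 0.24 over YAP-5SA (adjusted p = 4.04e-04). Mvd, which decarboxylates mevalonate diphosphate, had 26.4, 26.99, 44, 27.3 and 25.5 CPM in TAZ-S89A, against 13.8, 14.97 and 12.5 CPM in YAP-5SA and 12.7, 14.1 and 13.6 CPM in YAP-S127A. The YAP groups overlapped with each other and lay below all TAZ-S89A libraries, of which replicate 3 was again highest. Mvd differed by a log2 fold change of 1.16 ± 0.18 from YAP-S127A (adjusted p = 9.18e-05) and 1.13 ± 0.18 from YAP-5SA (adjusted p = 1.03e-04). On chromosome 8, where Mvd and Msmo1 lie, the median over all tested genes was 0.27 and 0.35 in these comparisons. Fdps, the farnesyl diphosphate synthase, had 18.1, 17.7, 19.98, 14.5 and 15.8 CPM in TAZ-S89A, 6.33, 7.22 and 6.08 CPM in YAP-5SA and 11.1, 11.8 and 11.1 CPM in YAP-S127A. The groups did not overlap, and YAP-5SA was lowest. Its log2 fold change was 0.61 ± 0.13 in TAZ-S89A over YAP-S127A (adjusted p = 0.00145), 1.40 ± 0.14 in TAZ-S89A over YAP-5SA (adjusted p = 9.79e-07) and -0.79 ± 0.15 in YAP-5SA over YAP-S127A (adjusted p = 4.62e-04).

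Acat2, the cytosolic acetoacetyl-CoA thiolase, averaged 36.2 ± 12.7 CPM in TAZ-S89A, 18.4 ± 7.18 in YAP-5SA and 20.8 ± 3.19 in YAP-S127A (SD). It was higher in TAZ-S89A by a log2 fold change of 0.80 ± 0.27 over YAP-S127A (adjusted p = 0.0212) and 0.97 ± 0.27 over YAP-5SA (adjusted p = 0.00738). The first of these calls was lost without YAP-S127A replicate 1 (adjusted p = 0.0792) or without replicate 2 (adjusted p = 0.0759). Acat2 lies on chromosome 17, where the median over all tested genes was 0.20 in TAZ-S89A over YAP-S127A and 0.95 over YAP-5SA, close to its own value in the second. Mvk, mevalonate kinase, averaged 37.6 ± 6.84 CPM in TAZ-S89A, 21.2 ± 0.241 in YAP-5SA and 23.2 ± 0.633 in YAP-S127A. It was higher in TAZ-S89A by 0.70 ± 0.14 and 0.83 ± 0.14 on the log2 scale over YAP-S127A and YAP-5SA (adjusted p = 7.69e-04 and 1.79e-04). Mvk and Cyp51 lie on chromosome 5, with medians of 0.26 and 0.355 in these comparisons. Pmvk, phosphomevalonate kinase, and Idi1, which isomerises isopentenyl diphosphate, were not called in any comparison of the main fit. Without the second series of TAZ-S89A sample IDs, Idi1 was called higher in TAZ-S89A over YAP-S127A (adjusted p = 0.0189) and over YAP-5SA (0.0261). In that fit Pmvk was called higher over YAP-5SA (0.0269), and the same calls were made with ID series as covariate. Pmvk ranged from 15.4 to 47.5 CPM in TAZ-S89A, 18.1 to 30.6 in YAP-5SA and 25.99 to 33.2 in YAP-S127A, so its TAZ-S89A libraries spanned both YAP groups. Idi1 ranged from 3.05 to 7.37 CPM in TAZ-S89A, 2.62 to 5.71 in YAP-5SA and 2.69 to 4.67 in YAP-S127A, with all 3 groups overlapping.

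Around squalene, neighbouring steps differed. Fdft1, squalene synthase, averaged 18.2 ± 3.77 CPM in TAZ-S89A, 24.2 ± 2.04 in YAP-5SA and 17.8 ± 1.55 in YAP-S127A. It was lower in TAZ-S89A than in YAP-5SA (-0.41 ± 0.15 on the log2 scale, adjusted p = 0.0351), and the libraries of those groups overlapped. That call was lost under 12 of 23 alternative settings, with adjusted p between 0.0016 and 0.158, and the gene shares 774 bases with Ctsb, which had 102036 counts over all libraries beside 8033 for Fdft1. On chromosome 14, where Fdft1 lies, the median of all tested genes was -0.76 in TAZ-S89A over YAP-5SA. Sqle, the squalene epoxidase, had 114, 116, 145, 164 and 164 CPM in the TAZ-S89A libraries, 69.7, 80.6 and 74.5 CPM in YAP-5SA and 36.9, 37.4 and 40.98 CPM in YAP-S127A. The 3 groups were fully apart, with TAZ-S89A highest and YAP-S127A lowest. Its log2 fold change was 1.87 ± 0.16 in TAZ-S89A over YAP-S127A (adjusted p = 3.40e-07), followed by Ebp and Cyp51 among the enzymes in that comparison. Against YAP-5SA it was 0.91 ± 0.16 (adjusted p = 2.05e-04), and in YAP-5SA over YAP-S127A 0.96 ± 0.17 (adjusted p = 3.00e-04). The chromosome 15 median was 0.30, -0.31 and 0.62 in these comparisons. Lss, lanosterol synthase, had 72.5, 71.1, 65.6, 77.6 and 79.4 CPM in TAZ-S89A, against 37.4, 30.2 and 36.4 CPM in YAP-5SA and 56.02, 55.7 and 48.01 CPM in YAP-S127A. Here too the groups did not overlap, but YAP-5SA was lowest, and no TAZ-S89A library stood apart from the rest. The log2 fold change of Lss in TAZ-S89A was 0.46 ± 0.12 over YAP-S127A (adjusted p = 0.0053) and 1.08 ± 0.13 over YAP-5SA (adjusted p = 4.85e-06), and -0.62 ± 0.14 in YAP-5SA over YAP-S127A (adjusted p = 0.00145). Lss overlaps the non-coding gene 4930483K19Rik, so its counts are uncertain to that extent.

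After lanosterol, Cyp51, the lanosterol demethylase, was among the enzymes with the largest excess in TAZ-S89A over YAP-5SA, within its SE of Dhcr7. It had 178, 174, 316, 173 and 174 CPM in the TAZ-S89A libraries, 45.1, 83.1 and 41.01 CPM in YAP-5SA and 64.1, 68.9 and 83.4 CPM in YAP-S127A. All TAZ-S89A libraries were above both YAP groups, which overlapped with each other, and 4 of the 5 TAZ-S89A libraries lay within 173 to 179 CPM with replicate 3 far above them. The log2 fold change was 1.49 ± 0.28 over YAP-S127A (adjusted p = 3.85e-04) and 1.85 ± 0.28 over YAP-5SA (adjusted p = 6.43e-05). Hsd17b7, a sterol 3-ketoreductase, had 35.6, 33.8, 40, 43.8 and 45.2 CPM in TAZ-S89A, 18.3, 21.3 and 20.1 CPM in YAP-5SA and 24.2, 24.1 and 26.2 CPM in YAP-S127A. Its TAZ-S89A libraries were all above the YAP groups, by a log2 fold change of 0.68 ± 0.13 over YAP-S127A (adjusted p = 4.34e-04) and 0.996 ± 0.13 over YAP-5SA (adjusted p = 1.37e-05). Msmo1, the methylsterol monooxygenase, had 359, 345, 505, 144 and 144 CPM in TAZ-S89A, 116, 199 and 91.6 CPM in YAP-5SA and 131, 142 and 194 CPM in YAP-S127A. TAZ-S89A replicates 4 and 5 lay within the YAP range, and the other TAZ-S89A libraries above it. The difference was called over YAP-5SA (1.15 ± 0.41 on the log2 scale, adjusted p = 0.0267) and not over YAP-S127A (0.94 ± 0.40, adjusted p = 0.0599). The first call was lost without YAP-5SA replicate 1 (adjusted p = 0.0949), YAP-5SA replicate 3 (0.113) or TAZ-S89A replicate 1 (0.0501), and the second difference was called under 9 of 23 alternatives, with adjusted p between 0.000491 and 0.172.

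Nsdhl and Ebp, which lie on the X chromosome, had another order. Nsdhl, a sterol dehydrogenase of the demethylation steps, had 33.3, 33.5, 59.9, 41.4 and 43.2 CPM in TAZ-S89A, 29.8, 43.9 and 30.99 CPM in YAP-5SA and 16.3, 18.1 and 17.9 CPM in YAP-S127A. TAZ-S89A and YAP-5SA overlapped, and both lay above YAP-S127A. Nsdhl differed by 1.27 ± 0.20 (log2) in TAZ-S89A over YAP-S127A (adjusted p = 1.07e-04), 0.28 ± 0.19 in TAZ-S89A over YAP-5SA (adjusted p = 0.24) and 0.999 ± 0.22 in YAP-5SA over YAP-S127A (adjusted p = 0.00144). Ebp, the sterol isomerase, had 70.9, 82.5, 104, 80.8 and 81.6 CPM in TAZ-S89A, 106, 146 and 94.5 CPM in YAP-5SA and 24.7, 28.8 and 31.9 CPM in YAP-S127A. YAP-5SA was highest on average, TAZ-S89A overlapped with it in replicate 3 only, and YAP-S127A was far below both. Ebp was higher in TAZ-S89A than in YAP-S127A by 1.56 ± 0.18 on the log2 scale (adjusted p = 4.88e-06) and lower than in YAP-5SA (-0.46 ± 0.16, adjusted p = 0.0279). The second call was lost under 7 of 23 alternatives, with adjusted p between 0.00805 and 0.195, among them the setting without YAP-5SA replicate 2 (0.195). In YAP-5SA over YAP-S127A, Ebp had the largest fold change of the enzymes, 2.02 ± 0.19 (adjusted p = 9.79e-07). The median of all tested genes on the X chromosome was -0.060, -0.18 and 0.24 in the 3 comparisons, nearer to 0 than the called values of Ebp and Nsdhl.

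Dhcr7, a reductase at the end of the pathway, had 26.8, 24.3, 25.6, 31.8 and 30.1 CPM in TAZ-S89A, 9.17, 7.29 and 8.69 CPM in YAP-5SA and 21.9, 22.4 and 19.6 CPM in YAP-S127A. The groups did not overlap, and YAP-5SA was by far the lowest. The log2 fold change was 1.72 ± 0.14 in TAZ-S89A over YAP-5SA (adjusted p = 1.12e-07) and -1.34 ± 0.15 in YAP-5SA over YAP-S127A (adjusted p = 3.50e-06). The smaller difference of TAZ-S89A from YAP-S127A (0.38 ± 0.13, adjusted p = 0.0221) was no longer called without YAP-S127A replicate 1 (adjusted p = 0.056), YAP-S127A replicate 3 (0.104) or the second series of TAZ-S89A sample IDs (0.0928). Dhcr7 lies on chromosome 7, whose median was -0.70, -0.54 and -0.12 in TAZ-S89A over YAP-S127A, TAZ-S89A over YAP-5SA and YAP-5SA over YAP-S127A. Tm7sf2, a sterol reductase, averaged 15.5 ± 2.46 CPM in TAZ-S89A, 13.5 ± 0.762 in YAP-5SA and 17.1 ± 0.981 in YAP-S127A. It was called in no comparison of the main fit, but was called lower in YAP-5SA over YAP-S127A under 6 of 23 alternatives. In TAZ-S89A over YAP-5SA it was called higher under 2 of 23. Of its bases, 9 overlap Vps51. Sc5d, the lathosterol desaturase, averaged 39.9 ± 3.39 CPM in TAZ-S89A, 37.8 ± 4.23 in YAP-5SA and 43.7 ± 3.44 in YAP-S127A. It was not called either. The adjusted p of Sc5d was 0.349, 0.613 and 0.196 in the 3 comparisons.

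Levels per length set the enzymes beside each other. Msmo1 had the highest nRPKM (reads scaled by the authors to gene length and library total) of the enzymes in all 3 groups, at 133 ± 65.5 in TAZ-S89A, 60.4 ± 24.9 in YAP-5SA and 69.9 ± 14.2 in YAP-S127A (mean ± SD). Idi1 had the lowest, at 1.46 ± 0.505, 1.05 ± 0.493 and 0.9797 ± 0.295. In TAZ-S89A, Msmo1 was followed by Sqle (42.2 ± 8.86), Ebp (39.5 ± 5.41) and Cyp51 (38.2 ± 11.1), which did not differ from each other beyond their spread. In YAP-5SA, Ebp came next (53.95 ± 12.5), within the spread of Msmo1, and then Sqle (22.2 ± 1.58). In YAP-S127A the enzymes after Msmo1 were Pmvk (15.6 ± 1.93), Hmgcs1 (15.4 ± 1.28) and Sc5d (15.1 ± 1.02), again within their spread. The order of the enzymes was thus not the same in the 3 groups.

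**Figure D2:**
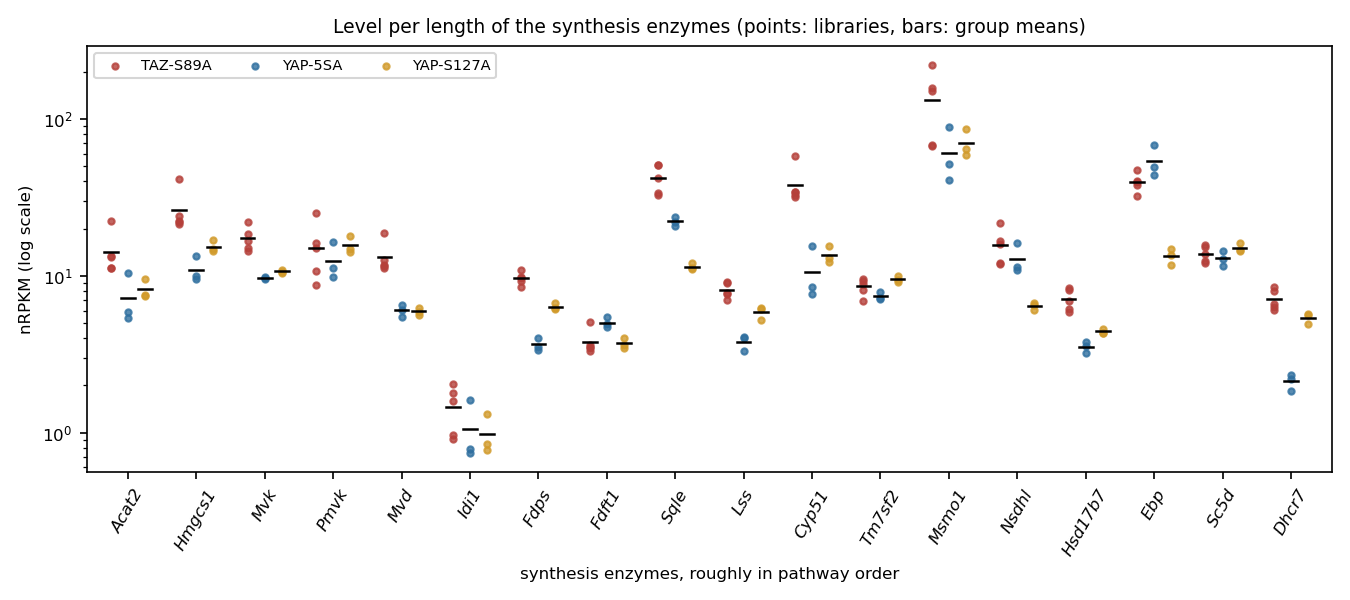
Level per length (nRPKM, log scale on the y axis) of the 18 synthesis enzymes in rough pathway order (x axis), with 1 point per library (TAZ-S89A, YAP-5SA, YAP-S127A from left to right) and a bar at the group mean. Msmo1 is the highest enzyme and Idi1 the lowest in all 3 groups. Every YAP-5SA library is below the other groups for Hmgcs1, Mvk, Fdps, Lss, Hsd17b7 and Dhcr7.

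In the SREBP control system, Srebf2, Insig1 and Scap were called in both comparisons of TAZ-S89A. Srebf2, which encodes the main activator of synthesis genes, had 252, 232, 208, 255 and 256 CPM in the TAZ-S89A libraries, 159.6, 126.6 and 164 CPM in YAP-5SA and 154, 149 and 133 CPM in YAP-S127A. All TAZ-S89A libraries were above the YAP libraries, which overlapped with each other. Srebf2 was higher by 0.73 ± 0.16 on the log2 scale over YAP-S127A (adjusted p = 0.00123) and 0.68 ± 0.16 over YAP-5SA (adjusted p = 0.00189), on chromosome 15 with medians of 0.30 and -0.31. Insig1, which retains the SCAP complex and is itself a known SREBP target, had 106, 112, 151, 119.9 and 128 CPM in TAZ-S89A, 27.5, 32.5 and 24.4 CPM in YAP-5SA and 89.4, 87.3 and 99.3 CPM in YAP-S127A. The groups did not overlap, and the gap between YAP-5SA and the rest was far larger than that between TAZ-S89A and YAP-S127A. Insig1 was higher in TAZ-S89A than in YAP-5SA by 2.14 ± 0.16 on the log2 scale (adjusted p = 5.68e-08), and YAP-5SA was lower than YAP-S127A (-1.71 ± 0.17, adjusted p = 1.23e-06). Its difference of 0.43 ± 0.15 between TAZ-S89A and YAP-S127A (adjusted p = 0.0239) was not called without YAP-S127A replicate 1 (0.0845) or replicate 2 (0.097). Insig1 lies within the span of the non-coding gene Gm35223, which had 4 counts over all libraries. On chromosome 5, where Insig1 lies, the median of all tested genes was 0.26 in TAZ-S89A over YAP-S127A and 0.355 over YAP-5SA.

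Scap, the escort of SREBP, was lowest in TAZ-S89A. It had 42.2, 36.4, 42.6, 47.8 and 46.3 CPM in TAZ-S89A, 92.6, 75.6 and 94.9 CPM in YAP-5SA and 63.4, 61.03 and 58.4 CPM in YAP-S127A, and the 3 groups did not overlap. Its log2 fold change was -0.50 ± 0.12 in TAZ-S89A over YAP-S127A (adjusted p = 0.0034), -1.03 ± 0.12 over YAP-5SA (adjusted p = 6.72e-06) and 0.53 ± 0.14 in YAP-5SA over YAP-S127A (adjusted p = 0.0058). On chromosome 9, where Scap and Sc5d lie, the median of all tested genes was -0.67 and -0.56 in the TAZ-S89A comparisons and -0.093 in the last one, so the Scap difference from YAP-S127A was no larger than that of its chromosome. Insig2, the second INSIG gene, had 57.7, 58.6, 74.6, 44.9 and 44.7 CPM in TAZ-S89A, 68.2, 113 and 65.6 CPM in YAP-5SA and 41.5, 47.5 and 56.1 CPM in YAP-S127A. YAP-5SA was above YAP-S127A in every library, with replicate 2 far above the others, and TAZ-S89A overlapped with both. It was higher in YAP-5SA than in YAP-S127A (0.77 ± 0.24 on the log2 scale, adjusted p = 0.0137), a call lost without YAP-5SA replicate 2 (0.0897) or YAP-S127A replicate 1 (0.0627). The lower level in TAZ-S89A than in YAP-5SA (-0.55 ± 0.21, adjusted p = 0.0346) lost its call under 10 of 23 alternatives, with adjusted p between 0.00975 and 0.301. Srebf1, whose proteins act mainly on fatty acid synthesis genes, had 161, 144, 148, 163 and 167 CPM in TAZ-S89A, 146, 108 and 148 CPM in YAP-5SA and 183, 185 and 172 CPM in YAP-S127A. YAP-S127A was above all other libraries, but a difference was called for YAP-5SA alone (-0.42 ± 0.16, adjusted p = 0.0413) and was lost under 12 of 23 alternatives. TAZ-S89A over YAP-S127A gave -0.20 ± 0.15 (adjusted p = 0.249). Srebf1 shares 114 bases with Rai1, and its count does not separate its transcript forms. Insig1 and Insig2 thus had opposite orders in the YAP groups, Insig1 low and Insig2 high in YAP-5SA.

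Uptake and transport genes went in different directions. Stard4, a soluble carrier that moves cholesterol between membranes and is a known SREBP target, had 70.8, 70.3, 91.2, 72.6 and 75.9 CPM in TAZ-S89A, 29.4, 39.9 and 29.6 CPM in YAP-5SA and 37.6, 38.2 and 43.8 CPM in YAP-S127A. TAZ-S89A was above both YAP groups in every library, and the YAP groups overlapped. Its log2 fold change was 0.93 ± 0.14 over YAP-S127A (adjusted p = 8.18e-05) and 1.21 ± 0.15 over YAP-5SA (adjusted p = 7.23e-06). Mylip, which encodes the LXR-induced ligase IDOL, had 3.16, 3.5, 2.55, 3.96 and 2.46 CPM in TAZ-S89A, 0.321, 0.478 and 0.484 CPM in YAP-5SA and 10.97, 10.1 and 9.84 CPM in YAP-S127A. The groups did not overlap, and the YAP groups lay on opposite sides of TAZ-S89A. The YAP-5SA values rest on 12, 20 and 20 counts per library. Mylip had a log2 fold change of -4.57 ± 0.25 in YAP-5SA over YAP-S127A (adjusted p = 3.31e-09), the largest of any member between the YAP groups. In TAZ-S89A it was -1.72 ± 0.17 over YAP-S127A (adjusted p = 1.51e-06) and 2.85 ± 0.23 over YAP-5SA (adjusted p = 1.39e-07).

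Npc1 and Npc2 encode the membrane and soluble proteins that release cholesterol from late endosomes and lysosomes. Npc1 averaged 43.9 ± 5.69 CPM in TAZ-S89A, 43.1 ± 4.04 in YAP-5SA and 30.4 ± 3.204 in YAP-S127A. It was higher than in YAP-S127A both in TAZ-S89A (0.53 ± 0.13 on the log2 scale, adjusted p = 0.00406) and in YAP-5SA (0.50 ± 0.15, adjusted p = 0.0101), the last call being lost without YAP-S127A replicate 3 (0.0558). Npc1 shares 8982 bases with Rmc1, which had 16934 counts over all libraries beside 15879 for Npc1, so the strand setting matters for its value. Npc2 ranged from 197 to 447 CPM in TAZ-S89A, 164 to 283 in YAP-5SA and 276 to 403 in YAP-S127A, with overlap between all groups. It was called in no comparison of the main fit. Under 8 of 23 alternatives it was called lower in YAP-5SA over YAP-S127A, and under 3 of 23 higher in TAZ-S89A over YAP-5SA.

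The exporters of cholesterol were nearly silent in TAZ-S89A. Abca1, which loads cellular cholesterol onto apolipoprotein A-I, had 1.27, 1.02, 0.8702, 1.35 and 1.04 CPM in the TAZ-S89A libraries, 52.9, 39.6 and 58.2 CPM in YAP-5SA and 63.1, 66.2 and 62.04 CPM in YAP-S127A. The TAZ-S89A values rest on 25 to 54 counts per library, and the lowest YAP library had 1657. No YAP library came near the TAZ-S89A range. The log2 fold change was -5.84 ± 0.17 over YAP-S127A (adjusted p = 4.63e-12) and -5.50 ± 0.17 over YAP-5SA (adjusted p = 7.21e-12), the largest of all members in both comparisons. Between the YAP groups Abca1 was lower in every YAP-5SA library without passing the test (-0.35 ± 0.16, adjusted p = 0.0819). That difference was called under 5 of 23 alternatives. Abca1 lies on chromosome 4, with a median of -0.080 in TAZ-S89A over YAP-S127A and 0.49 over YAP-5SA.

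Abcg1, which exports sterol to lipoprotein particles, had 0.0944, 0.0446, 0.05801, 0.163 and 0.209 CPM in TAZ-S89A, 2.81, 3.16 and 3.05 CPM in YAP-5SA and 2.03, 1.87 and 1.81 CPM in YAP-S127A. Those TAZ-S89A values are 4, 2, 2, 4 and 5 counts, against 105, 132 and 126 counts in YAP-5SA and 91, 57 and 65 counts in YAP-S127A. The 3 groups did not overlap, and YAP-5SA was highest. Abcg1 had a log2 fold change of -4.18 ± 0.31 over YAP-S127A (adjusted p = 5.73e-08) and -4.84 ± 0.30 over YAP-5SA (adjusted p = 7.14e-09), on chromosome 17 with medians of 0.20 and 0.95. The higher level in YAP-5SA than in YAP-S127A (0.66 ± 0.25, adjusted p = 0.0374) lost its call under 9 of 22 alternatives. The summed level of Abca1 and Abcg1 was 0.928 to 1.51 CPM in TAZ-S89A, 42.8 to 61.2 CPM in YAP-5SA and 63.8 to 68.1 CPM in YAP-S127A. ABCA1 and ABCG1 are abundant in macrophages as well. The summed macrophage and leukocyte markers given above were lowest in TAZ-S89A. Of the 6 such markers, 5 could be tested. Among these, 1 (Csf1r) was lower in TAZ-S89A than in YAP-S127A and 4 were lower than in YAP-5SA, with none higher. Over all tested genes, 30.6% and 31.0% were lower in these comparisons. Against YAP-S127A the other 4 were not called, and 2 of the 5 had a positive log2 fold change, of up to 1.12. In YAP-5SA, 4 of the 5 were higher than in YAP-S127A and none lower, beside 28.2% and 27.0% of all tested genes. Csf1r, a macrophage growth factor receptor, averaged 1.82 ± 0.308 CPM in TAZ-S89A, 28.2 ± 3.27 CPM in YAP-5SA and 7.598 ± 0.351 CPM in YAP-S127A (SD). The sixth, Adgre1, was at 0 in all TAZ-S89A and YAP-S127A libraries and reached 0.294 CPM in YAP-5SA. The part of these markers in the Abca1 and Abcg1 differences was not tested.

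Nr1h3, the gene of LXR-alpha, was highest in YAP-5SA. It had 0.519, 0.5796, 0.696, 0.449 and 0.501 CPM in TAZ-S89A, 2.27, 2.63 and 1.67 CPM in YAP-5SA and 0.624, 0.492 and 0.556 CPM in YAP-S127A, from 11 to 110 counts per library. TAZ-S89A and YAP-S127A overlapped, and YAP-5SA was above both. Nr1h3 had a log2 fold change of -1.98 ± 0.22 in TAZ-S89A over YAP-5SA (adjusted p = 3.63e-06), 1.96 ± 0.26 in YAP-5SA over YAP-S127A (adjusted p = 2.04e-05) and -0.018 ± 0.26 in TAZ-S89A over YAP-S127A (adjusted p = 0.958). Nr1h3 shares 18 bases with Acp2, which had 18396 counts over all libraries beside 422 for Nr1h3, so its low counts are uncertain. Nr1h2, the gene of LXR-beta, averaged 54.96 ± 3.06 CPM in TAZ-S89A, 65.1 ± 8.08 in YAP-5SA and 62.6 ± 1.37 in YAP-S127A. It was not called in any comparison of the main fit, but was called lower in TAZ-S89A over YAP-5SA under 2 of 23 alternatives. Soat1, which esterifies cholesterol for storage in droplets, averaged 88.4 ± 14.6 CPM in TAZ-S89A, 167 ± 6.33 in YAP-5SA and 108 ± 3.96 in YAP-S127A. It was lower in TAZ-S89A than in YAP-5SA (-0.92 ± 0.14 on the log2 scale, adjusted p = 9.32e-05) and higher in YAP-5SA than in YAP-S127A (0.63 ± 0.17, adjusted p = 0.00513). Per length, Nr1h2 (22.3 ± 1.34, 26.2 ± 3.29 and 25.3 ± 0.777 nRPKM in TAZ-S89A, YAP-5SA and YAP-S127A) was above Nr1h3 (0.208 ± 0.0306, 0.828 ± 0.182 and 0.212 ± 0.0255 nRPKM) in all 3 groups.

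**Figure D3:**
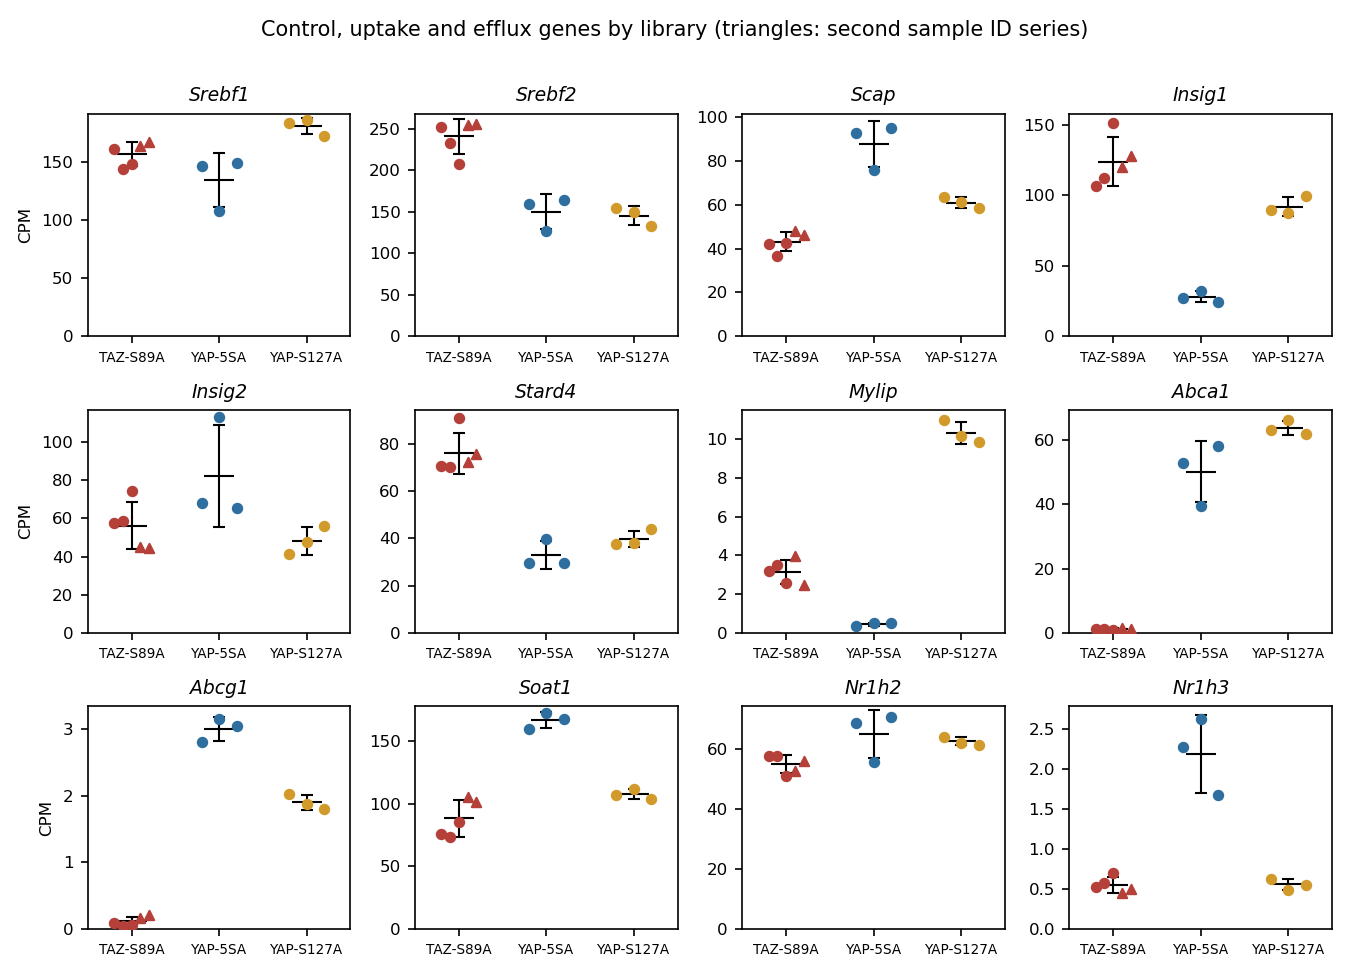
CPM (y axis, from 0) of 12 control, uptake and efflux genes in each library of TAZ-S89A, YAP-5SA and YAP-S127A (x axis), with bars for the mean ± SD; triangles are TAZ-S89A replicates 4 and 5, from the second series of sample IDs. Abca1 and Abcg1 sit near 0 in TAZ-S89A, Insig1 is lowest in YAP-5SA, and Mylip is highest in YAP-S127A and lowest in YAP-5SA.

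Set against each other, synthesis and export ran in opposite directions between TAZ-S89A and the YAP groups. The CPM of the 18 enzymes summed to 1222, 1199, 1763, 1047 and 1054 in the TAZ-S89A libraries, 625.9, 860.7 and 587.8 in YAP-5SA, and 608.8, 638 and 734.4 in YAP-S127A. All TAZ-S89A sums were above all YAP sums, and the YAP groups overlapped. The sum is not length-scaled. Over the 4 uptake and transport genes the median log2 fold change of TAZ-S89A was 0.17 over YAP-S127A and 0.84 over YAP-5SA. They include Mylip (-1.72 and 2.85), whose ligase degrades lipoprotein receptors, so this median does not measure uptake. Over the 5 efflux, storage and LXR genes the medians were -0.28 and -1.98, with all genes near 0 as given above. These 2 values are those of Soat1, not called in that comparison, and Nr1h3, with low counts. Neither is an exporter, and the statement on export rests on Abca1 and Abcg1 alone.

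Within each group, most enzymes were highest in the same library. In TAZ-S89A, 13 of the 18 enzymes were highest in replicate 3, in YAP-5SA 15 were highest in replicate 2, and in YAP-S127A 12 were highest in replicate 3. These libraries also had the largest excess of short over long genes in their group. Measured over 13759 genes as the median deviation of the shortest tertile minus that of the longest, it was 0.50 (log2) in TAZ-S89A replicate 3, 0.24 in YAP-5SA replicate 2 and 0.14 in YAP-S127A replicate 3, with -0.31 and -0.28 in TAZ-S89A replicates 4 and 5. Between the groups, the medians of the length tertiles lay between -0.12 and 0.092. The part of this trend in the enzymes' spread was not tested. With it removed, 13 enzymes were higher in TAZ-S89A than in YAP-S127A and 11 than in YAP-5SA, and without TAZ-S89A replicate 3 and YAP-5SA replicate 2 the numbers were 12 and 11. Both settings were added after the data were seen.

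TAZ-S89A replicates 4 and 5 carry sample IDs of another series than the remaining libraries. Their counts were close to each other, as were those of replicates 1 and 2, with chi-square per degree of freedom of 2.01 and 5.63 beside 101.3 to 217.9 for the other TAZ-S89A pairs, but the pairs differed by more than sampling noise and were kept as separate libraries. In that second ID series, 8 enzymes lay below and 5 above all of replicates 1 to 3, and the median difference of the enzymes was -0.27 (log2), against -0.038 over 13759 genes. Msmo1 had the widest gap, at 144.2 and 144.0 CPM in replicates 4 and 5 against 345 to 505.4 CPM in replicates 1 to 3. Sqle went the other way, at 163.5 and 163.9 CPM against 113.7 to 145 CPM. No YAP library belongs to the second series.

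**Figure D4:**
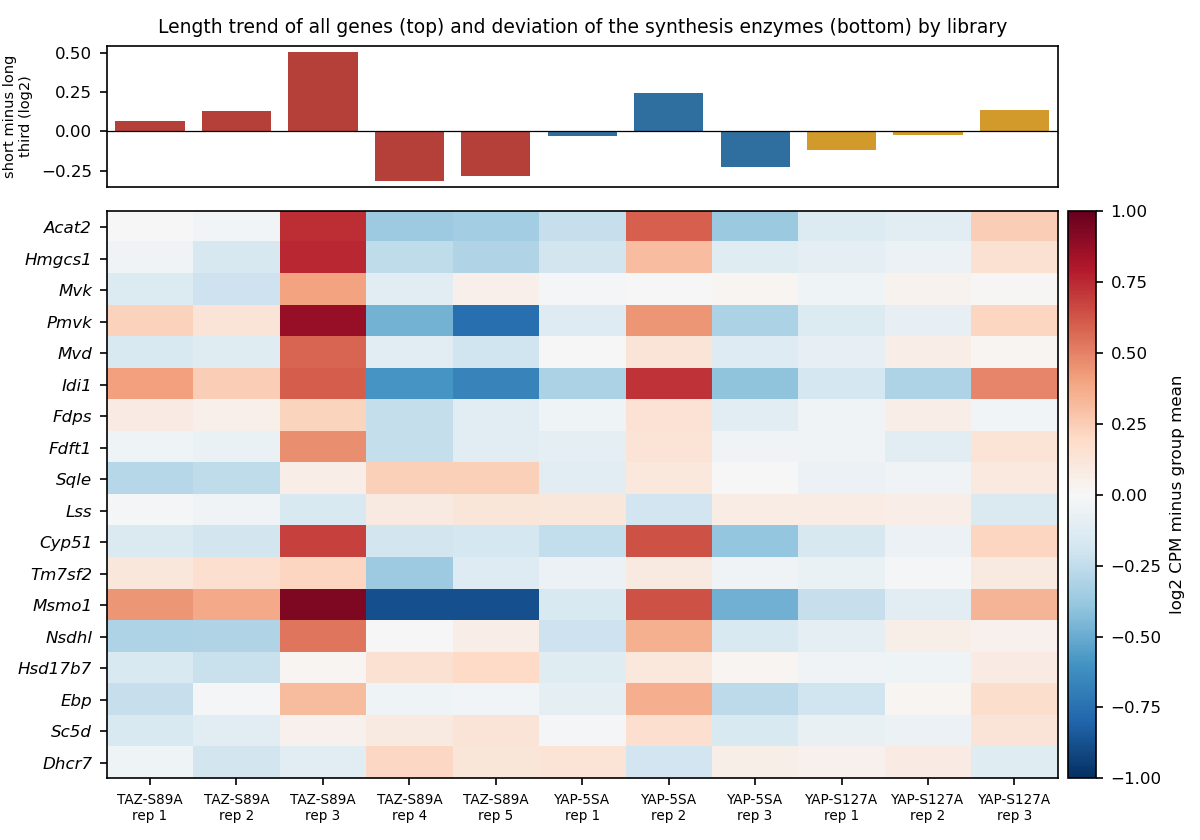
Top: difference of the median log2 deviation between the shortest and the longest tertile of genes (y axis) for each of the 11 libraries (x axis). Bottom: log2 CPM minus the group mean (colour) of the 18 enzymes (y axis) in the same libraries; TAZ-S89A replicate 3 and YAP-5SA replicate 2 are mostly red, and Msmo1 and Idi1 are blue in TAZ-S89A replicates 4 and 5.

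Of 48 other genes of sterol handling, 46 could be tested. In TAZ-S89A, 15 were higher and 18 lower than in YAP-S127A, and 15 were higher and 16 lower than in YAP-5SA. Over all tested genes the shares were 27.0% higher and 30.6% lower in the first comparison and 26.9% and 31.0% in the second. The difference between these genes and the enzymes was not tested. In YAP-5SA, 14 were higher and 11 lower than in YAP-S127A, shares near the 28.2% and 27.0% of all tested genes. Among 8 genes of SREBP processing and sterol-regulated degradation, 5 were higher and none lower in TAZ-S89A than in YAP-S127A, and 3 were higher and 2 lower than in YAP-5SA. Of 13 tested genes of LXR response, oxysterols and esters, 4 were higher and 8 lower in TAZ-S89A than in YAP-S127A, and 4 were higher and 7 lower than in YAP-5SA.

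The largest differences of TAZ-S89A from YAP-S127A in this list, among genes of at least an average log2 CPM of 2, included genes of sterol esters and lipoprotein receptors. Soat2, the second sterol esterifying enzyme, averaged 3.76 ± 1.15 CPM in TAZ-S89A and 43.9 ± 4.47 CPM in YAP-S127A (-3.56 ± 0.21 on the log2 scale, adjusted p = 4.97e-09). Vldlr, a lipoprotein receptor and known IDOL substrate, averaged 44.2 ± 11.5 and 114 ± 2.66 CPM in the same groups (-1.37 ± 0.17, adjusted p = 1.24e-05). Osbpl5, a lipid transfer protein, was lower as well (-1.26 ± 0.13), while the ester hydrolases Lipa, of lysosomes (1.32 ± 0.16), and Nceh1 (1.11 ± 0.20) were higher in TAZ-S89A.

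Against YAP-5SA the largest were Pltp, a phospholipid transfer protein and known LXR target, with 12.2 ± 0.969 CPM in TAZ-S89A and 51.1 ± 2.05 CPM in YAP-5SA (-2.07 ± 0.10 on the log2 scale, adjusted p = 7.75e-10), and Lcat, which esterifies plasma cholesterol, with 8.73 ± 1.47 and 2.57 ± 0.655 CPM (1.76 ± 0.20, adjusted p = 4.50e-06). Nceh1 (-1.47 ± 0.18) was lower in TAZ-S89A, and the LXR partner Rxrb (1.498 ± 0.11) and the sterol transporter Gramd1a (1.29 ± 0.19) were higher. Nceh1 therefore differed from the YAP groups in opposite directions. Between the YAP groups, Soat2 (-2.65 ± 0.24), Gramd1a (-2.29 ± 0.21), Lcat (-2.27 ± 0.22) and the receptor Lrp1 (-2.17 ± 0.25) were lower in YAP-5SA than in YAP-S127A, and Nceh1 (2.58 ± 0.22) and Pltp (1.54 ± 0.12) were higher, all with adjusted p of at most 6.35e-06.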

How the data were processed

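PolyA RNA was extracted with the RNeasy kit, per the labels' protocols. The deposited count column gives reads per Entrez gene model, per the file headers. The authors also deposited nRPKM, an RPKM with library size factors applied, as described per the file headers; it served only to compare levels per length. Reads were aligned with GSNAP to GRCm38, per the submitters' processing notes. How reads were counted, with which annotation and strand rule, is not given in the sources used here. RefSeq on GRCm38.p6 gave a symbol to 31049 of 36528 IDs; the 5479 others held 2.91% of counts and stayed in the totals.

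Counts were tested with edgeR 4.0.16 in R 4.3.3: filterByExpr by group (18224 genes kept, 18304 removed), TMM factors, and a robust quasi-likelihood fit of all 11 libraries with 3 groups. CPM use TMM totals. Replicates were numbered in order of deposition. The spread between libraries, relative to the mean, was 0.249 for TAZ-S89A, 0.173 for YAP-5SA and 0.0902 for YAP-S127A; the fit shares 1 estimate among them. A gene was called when its adjusted p (Benjamini-Hochberg) was under 0.05. The fit was also run on simulated counts with the same spread per gene in all groups. That run could not check the unequal spreads given above, and no result here rests on it.

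Alternatives were limma-voom 3.58.1, DESeq2 1.42.0, upper-quartile or RLE factors, a strict filter (1 CPM in 3 libraries, average log2 CPM of 1) or none, fits of the compared groups alone, the second sample ID series dropped or ID series as covariate, near pairs summed, an absolute log2 fold change of 1, and each library left out. Removing the length trend (lowess, span 0.3) and leaving out 2 libraries were added after the data were seen.

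The members and lists were chosen with earlier results of these data known. The rule for naming genes gave all 32 members. It asked for values per library for 8 fixed members and up to 12 with the largest fold change among those called without overlap. It also took up to 6 other pathway genes per comparison. A pathway gene that this rule took is not reported here. Pathway genes beyond the rule, Mvk, Msmo1 and markers named singly were chosen after their values were seen. Genes of unknown strand that overlap a neighbour are uncertain.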

Additional observations from a re-analysis of the deposited data

Results flagged for a closer look

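In 6 of the 32 members tested, 1 TAZ-S89A library stood apart from the other 4 by Dixon's test, and in all 6 it was replicate 3, as the highest. Acat2 had 57.9 CPM there, with 27.0 to 34.7 CPM in the other TAZ-S89A libraries. Hmgcs1 had 193 CPM, with 93.0 to 112 CPM in the others. Mvd had 44.0 CPM, with 25.5 to 27.3 CPM in the others. Fdft1 had 24.8 CPM, with 15.2 to 17.4 CPM in the others. Cyp51 had 316 CPM, with 173 to 179 CPM in the others. Stard4 had 91.2 CPM, with 70.3 to 75.9 CPM in the others. The test flags about 5% of groups of independent values by chance. That rate does not apply here, because replicates 1 and 2 had close counts, as did replicates 4 and 5. Only replicate 3 lacked a near partner, so the other libraries could hardly be flagged. The members also share this library, so the 6 are not independent. The same library had the largest excess of short over long genes, 0.50 on the log2 scale, and the part of that trend was not tested. The groups of 3 were not tested in this way.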

How the results depend on the processing

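No paired analysis was possible because the replicate numbers follow the order of deposition and pair no samples. Of the members called, 17 of 20 (TAZ-S89A over YAP-S127A), 19 of 23 (TAZ-S89A over YAP-5SA) and 11 of 16 (YAP-5SA over YAP-S127A) were called under all 23 alternatives (22 for Abcg1 and Nr1h3, which the strict filter left out), and no called member changed sign in any. Of the members not called, 3 of 12, 5 of 9 and 8 of 16 in the same comparisons were called under some alternative. With a fold threshold (absolute log2 value 1 or more), fewer are called by construction: 5873, 6164 and 6269 genes in these comparisons. Members then called were 5 higher, all of them enzymes, in TAZ-S89A over YAP-S127A; 4 lower, with 7 enzymes higher and 0 lower, over YAP-5SA; and 2 higher and 3 lower, with 1 enzyme each way, in YAP-5SA over YAP-S127A.

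In TAZ-S89A over YAP-5SA, 5 members and 0 enzymes were lower when only the compared groups were fitted, without the second ID series, or with near pairs summed, and 1 enzyme with no filter, the ID covariate, or without TAZ-S89A replicate 3 and YAP-5SA replicate 2. In YAP-5SA over YAP-S127A, 11 members and 6 enzymes were lower in the fit of these groups alone, 10 and 5 without the second series or with its covariate, and 11 and 7 without TAZ-S89A replicate 3 and YAP-5SA replicate 2; 5 enzymes were lower with the length trend removed. The cause of these shifts was not tested. Without 1 library each, called genes ranged from 9020 to 10920, 9451 to 11154 and 8778 to 10724. In TAZ-S89A over YAP-S127A, 13 to 17 members were then higher, 4 lower, and 10 to 13 enzymes higher and 0 lower. Over YAP-5SA, 14 to 16 members were higher, 5 to 8 lower, with 10 to 12 enzymes higher and 0 to 2 lower. In YAP-5SA over YAP-S127A, 7 to 10 members were higher and 5 to 8 lower, with 3 to 4 enzymes higher and 3 to 4 lower.

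Signs changed only among differences that had not been called. In TAZ-S89A over YAP-S127A these were Pmvk (0.00057 with no filter, 0.29 without the second series, 0.30 with its covariate, 0.15 with near pairs summed), Nr1h3 (0.015, 0.065, 0.080 and 0.058 in the same settings), Npc2 (0.067 without the second series, 0.081 with its covariate), Tm7sf2 (0.0073 with that covariate) and Fdft1 (-0.044 without TAZ-S89A replicate 3 and YAP-5SA replicate 2). Over YAP-5SA, Npc1 had -0.085 without the second series and -0.10 with its covariate. In YAP-5SA over YAP-S127A, Mvd had -0.014 with upper-quartile factors, -0.0020 without the second series and -0.025 without TAZ-S89A replicate 3 and YAP-5SA replicate 2, where Idi1 had -0.34. In the fits without libraries, the log2 fold change in TAZ-S89A over YAP-S127A ranged from -0.26 to 0.14 for Pmvk, -0.046 to 0.12 for Fdft1 and -0.096 to 0.075 for Nr1h3. Over YAP-5SA it ranged from -0.0020 to 0.20 for Sc5d and -0.046 to 0.12 for Npc1. In YAP-5SA over YAP-S127A it ranged from -0.54 to 0.010 for Acat2, -0.034 to 0.096 for Mvd, -0.35 to 0.39 for Idi1, -0.59 to 0.015 for Msmo1, -0.020 to 0.17 for Srebf2 and -0.0031 to 0.16 for Nr1h2. Depth limits Abcg1 most in TAZ-S89A, where all 5 libraries together hold 17 counts.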
